A study of Sus scrofa with 28 samples.

Results

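The genes described here carry out or steer the burning of fatty acids in the liver cell. They are 8 protein-coding genes, *CPT1A*, *CPT2*, *ACADVL*, *HADHA*, *HADHB*, *ACADM*, *EHHADH* and *PDK4*, of the 19484 protein-coding genes of the pig RefSeq annotation. They were followed through peak lists from ATAC-seq, an assay in which a transposase cuts open chromatin and inserts sequencing adapters. A gene was counted as listed in a library when the centre of a listed peak lay inside it or within 1000 bp of either of its ends. By this rule 36 of the 84192 deposited peaks, or 0.0428%, belonged to the 8 genes. For the given genes the peaks were taken by position alone, but the genes were chosen with earlier results of these data known. The samples were livers of female pigs of the Zlotnicka White breed at 180 days of age, reared alike at a test station and slaughtered at about 100 kg. Liver pieces were digested with Accutase, strained and frozen before the libraries were made, so the tissue was a mixture of liver cells rather than a sorted type. The 28 libraries fell into 4 groups of 7: high fat content with the number 200, low fat content with 200, high fat content with 600, and low fat content with 600. The meaning of 200 and 600 was not stated, and the fat groups stood under a tag named shear force, so the fat depot was not stated either. The 200 libraries all carried the same lane tag, and the 600 libraries a different one, which means that number and lane cannot be told apart. The labels did not say that the 7 libraries of a group came from separate animals, and the p-values below measure the spread between these libraries.

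Long-chain fatty acids cross into the mitochondrion only as carnitine esters, made on the outer membrane by CPT1 and turned back into acyl-CoA on the inner membrane by CPT2. There the chain is shortened in repeated rounds of beta-oxidation, and in the liver much of the acetyl-CoA released is made into ketone bodies and exported during fasting. Pyruvate dehydrogenase kinases, of which PDK4 is the one best known to be induced by fasting and by fatty acids, switch off the entry of pyruvate from glucose. Much of this gene set is known to be under the nuclear receptor PPARα. None of the 8 genes encodes an enzyme of ketone body synthesis itself, and those enzymes are described with the wider pathway below.

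The libraries differed widely in the number of peaks they listed, from 39 to 17652, and this set what could be seen of any gene. The 15 libraries with at least 1000 peaks listed a mean of 19.9% of all protein-coding genes, and the 13 others a mean of 0.865%. The high fat replicate 3 libraries stood apart, with 68.3% (200) and 57.2% (600) of their peaks in regions that no other library listed. Of their peaks 23.9% and 25.4% lay within 1000 bp of a gene end, the lowest shares among the libraries with at least 1000 peaks, while 5 smaller libraries had 1.98% to 10.2%. All 12 hepatocyte markers (albumin, fibrinogens and other secreted liver proteins) were listed somewhere, against 61.6% of all protein-coding genes. They were listed in 2 (*APOA1* and *SERPINA1*) to 12 libraries each, and between 0 and 12 of them per library. The defining genes of other cells were mostly unlisted: 3 of 12 endothelial and stellate markers, 2 of 9 Kupffer cell markers, 0 of 5 cholangiocyte markers, 3 of 9 lymphocyte markers and 1 of 5 erythroid markers had a peak, the highest being *CD14* in 6 libraries and *MARCO* in 5. In such tissue, fewer cells of a type and less open chromatin per cell cannot be told apart.

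Each of the 8 genes had a peak in at least 1 library, as did 61.6% of all protein-coding genes, but they fell far apart in how often. *ACADM* was listed in 15 libraries, *PDK4* in 11 and *CPT2* in 5. *CPT1A*, *ACADVL*, *EHHADH*, *HADHA* and *HADHB* were listed in 1 library each. Across all protein-coding genes 343, or 1.76%, were listed in at least 15 libraries and 1416, or 7.27%, in at least 11. For 5 libraries the number was 5263. The median gene of the 8 was listed in 1 library, as was the median over all 19484 genes. Of the 8, 2 genes were listed in 10 or more libraries, as were 9.64% of all genes. The set thus held 2 often-listed genes and 5 that were listed as rarely as most of the genome. In all, 17 libraries listed at least 1 of the 8 genes and 11 listed none.

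**Figure D1:**
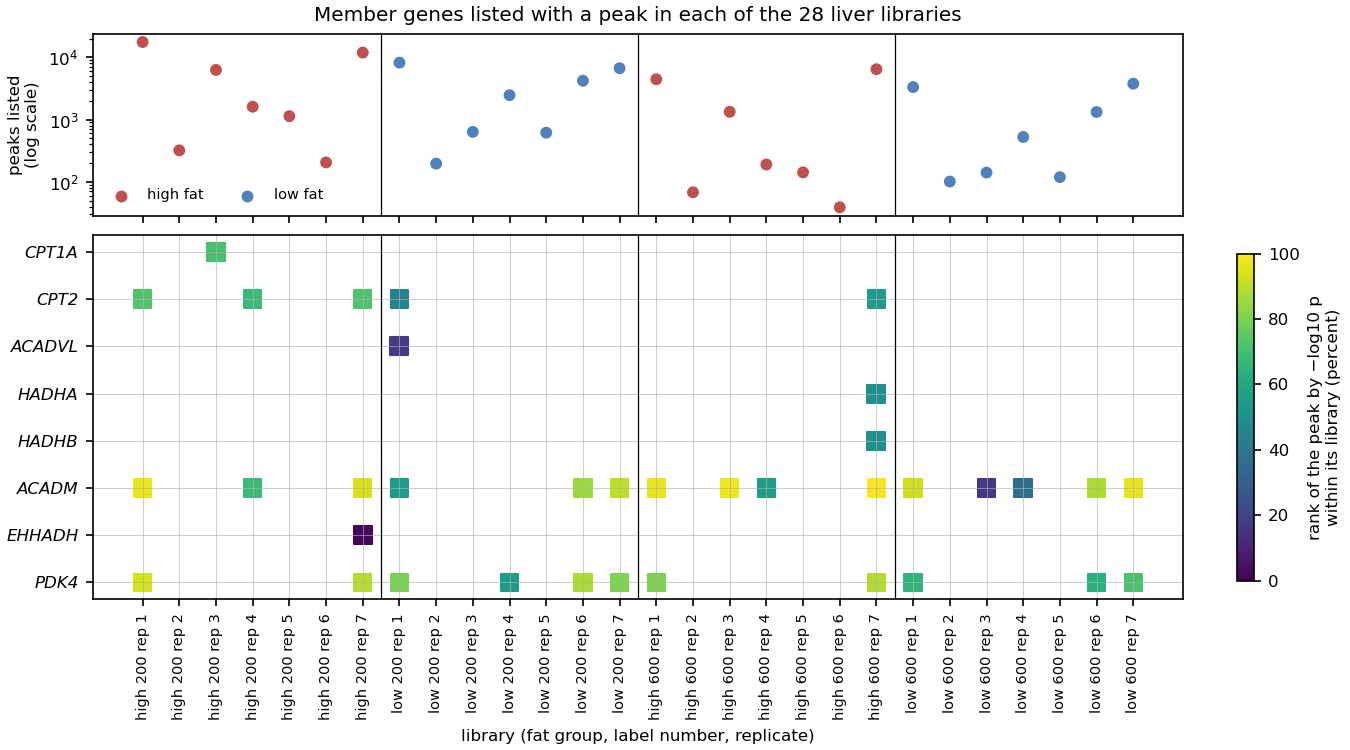
Top, peaks listed per library on a log scale; bottom, a filled square for each gene with a listed peak in that library, coloured by the percentile rank of the peak's −log10 p within its own library. ACADM fills 15 columns and PDK4 11, while CPT1A, ACADVL, EHHADH and the HADHA and HADHB pair fill 1 each, mostly in libraries with many peaks.

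At the carnitine gate, the members had peaks in different libraries. *CPT1A* encodes the liver form of the outer-membrane transferase, the rate-controlling step of mitochondrial fatty acid oxidation. It lies on chromosome 2, positions 4250642 to 4293914 of Sscrofa11.1, and was listed only in high fat 200 replicate 3. That library held 2 *CPT1A* peaks. The peak outside the gene had its summit 552 bp from the lower end of the gene and a −log10 p of 3.74. The other lay inside the gene, 18565 bp from that end, with a −log10 p of 4.15. Both values were common ones in that library, 2848 and 2035 of its 6288 peaks having the same −log10 p. No other library listed *CPT1A*, including the 4 libraries of the 200 set with more peaks, so that without the high fat replicate 3 libraries it was listed in 0. Whether the make-up of that library bears on the *CPT1A* peaks was not tested.

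*CPT2* encodes the inner-membrane partner that hands the acyl group back to coenzyme A. It lies on chromosome 6, positions 159038129 to 159061327, and its 5 peaks formed 1 region of 1031 bp, positions 159060655 to 159061685, at the upper end of the gene. The −log10 p was 5.13, 4.12 and 5.35 in high fat 200 replicates 1, 4 and 7, 4.48 in low fat 200 replicate 1 and 4.09 in high fat 600 replicate 7. Thus 4 of the 5 libraries were of the high fat group, and 4 of the 5 carried the number 200. Of all tested genes 86.3% were listed in more 200 than 600 libraries, and 5.01% in more 600 libraries. In the 200 set 35.5% were listed in more high fat and 38.4% in more low fat libraries. The summits all lay inside the gene, 236 to 325 bp from its upper end, so that the 5 positions were within 89 bp of each other. The peaks were narrow in the 200 libraries, 350 to 487 bp, and 1031 bp in the 600 library. They ranked near the middle of their libraries, from the percentile 44.9 to 72.4 by −log10 p.

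The dehydrogenases that open each round of beta-oxidation stood at opposite ends of the listing order. *ACADVL*, the enzyme for very long chains on the inner membrane, lies on chromosome 12, positions 52573521 to 52581755. It had 1 peak, in low fat 200 replicate 1, 409 bp wide, with a −log10 p of 4.01 and a rank of 17.6%. The summit was 2877 bp inside the gene. The gene shares 501 bp with *DLG4* at its lower end and 69 bp with *DVL2* at its upper end. The peaks nearest outside the window of any of the 8 genes were also at *ACADVL*, with centres 2322 to 2723 bp beyond its ends in 4 libraries. The farthest peak inside a window had its centre 565 bp beyond an end, at *ACADM*, so no peak lay near the limit of 1000 bp.

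*ACADM*, which encodes the medium-chain acyl-CoA dehydrogenase, was the most widely listed gene of the set. It lies on chromosome 6, positions 137541481 to 137575544. Its 15 peaks chained into 1 region of 2368 bp, positions 137574737 to 137577104, that spans the upper end of the gene. The next listed region was 17888 bp away and was listed in 2 libraries. In the high fat 200 libraries the −log10 p of the *ACADM* peak was 7.89, 4.12 and 6.85 in replicates 1, 4 and 7. In the low fat 200 libraries it was 4.69, 5.23 and 6.67 in replicates 1, 6 and 7. The ranges of the fat groups overlapped, and the highest value was in the library with the most peaks. In the high fat 600 libraries it was 6.22, 4.57, 3.70 and 6.98 in replicates 1, 3, 4 and 7. In the low fat 600 libraries it was 5.23, 3.31, 3.50, 4.54 and 6.37 in replicates 1, 3, 4, 6 and 7. The fat groups overlapped here as well, and the lowest values came from libraries of 141 to 526 peaks.

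Within its library the *ACADM* peak mostly stood high. Its rank by −log10 p was a median of 87.6% over the 6 libraries of the 200 set (54.4% to 96.9%) and 92.8% over the 9 of the 600 set (17.02% to 99.2%). In high fat 600 replicate 7 it was the only peak at its −log10 p, at the percentile 99.2 of 6453 peaks. *ACADM* was listed in 12 of the 15 libraries with at least 1000 peaks and in 3 of the 13 with fewer. The 3 small libraries were high fat 600 replicate 4 (190 peaks), low fat 600 replicate 3 (141 peaks) and low fat 600 replicate 4 (526 peaks). These 3 were taken because they listed *ACADM*, so its presence in all of them was given beforehand. A total of 34 protein-coding genes, or 0.175%, were listed in all 3. Libraries without an *ACADM* peak could still be large: high fat 200 replicate 3, with 6288 peaks, and low fat 200 replicate 4, with 2467, did not list it.

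**Figure D2:**
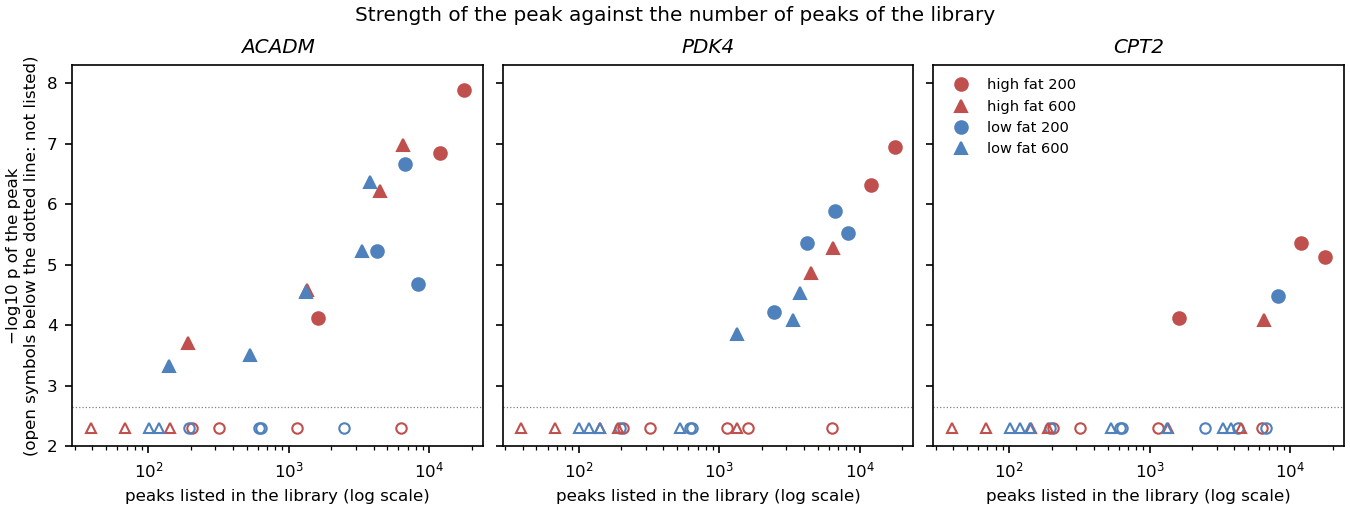
The −log10 p of the ACADM, PDK4 and CPT2 peaks against the number of peaks of the library (log scale), with colour for fat group and shape for the number 200 or 600; open symbols under the dotted line are libraries that did not list the gene. The highest −log10 p of ACADM and of PDK4 is in the library with the most peaks, ACADM alone reaches libraries under 1000 peaks, and for PDK4 the high fat symbols of each shape lie above the low fat ones, at larger libraries.

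The later steps of the round on long chains are carried by the mitochondrial trifunctional protein, whose α subunit is encoded by *HADHA* and β subunit by *HADHB*. The genes lie side by side on chromosome 3, *HADHB* at positions 112712894 to 112753121 and *HADHA* at 112753343 to 112797627, with 221 bp between their facing ends. The single peak of the pair, positions 112752595 to 112753822, covered this gap in high fat 600 replicate 7, and it is 1 observation for both genes. It had a −log10 p of 3.98 and a rank of 49.2%, with its summit 46 bp inside *HADHB*. The next listed region was 80891 bp away, in 8 libraries. No 200 library listed the pair, including those of 17652 and 11943 peaks.

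*EHHADH* encodes the peroxisomal bifunctional enzyme, which serves chain shortening outside the mitochondrion. It lies on chromosome 13, positions 123104085 to 123162119, and had 1 peak, in high fat 200 replicate 7, with its summit 198 bp inside the upper end. At a −log10 p of 3.52 and a rank of 1.58% it was among the weakest peaks of its library. No other region was listed within 100 kb of it.

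*PDK4*, the kinase that restrains pyruvate oxidation when fat is burned, was listed in 11 libraries. It lies on chromosome 9, positions 75246956 to 75260134, and the annotation places it wholly inside *ASB4* and the long noncoding RNA gene LOC106504960, so that its peaks also fall in those genes. Its peaks formed 1 region of 1446 bp, positions 75259432 to 75260877, over the upper end of *PDK4*. The −log10 p was 6.94 and 6.32 in high fat 200 replicates 1 and 7, and 5.53, 4.22, 5.35 and 5.89 in low fat 200 replicates 1, 4, 6 and 7. In the 600 set it was 4.87 and 5.28 in high fat replicates 1 and 7, and 4.08, 3.86 and 4.53 in low fat replicates 1, 6 and 7. In both sets the 2 high fat values lay above every low fat value, with 2 libraries in the high fat group and 4 or 3 in the low fat group. The high fat libraries were also those that listed more peaks, 17652 and 11943 against 2467 to 8221 in the 200 set, and 4455 and 6453 against 1325 to 3775 in the 600 set. Many regions showed the same order in these libraries. Of the 1537 regions listed in all 6 of the 200 libraries that listed *PDK4*, 50.9% had both high fat values above the 4 low fat values, and of the 1072 regions in all 5 of the 600 libraries 38.8% had both above the 3. By rank within the library the *PDK4* groups did not overlap either, at 93.1% and 89.1% against 54.8% to 87.5% in the 200 set and at 80.4% and 88.6% against 63.3% to 71.3% in the 600 set, which held for 49.1% and 34.2% of the same regions. The order was seen after the values were known and is given without a test.

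Listing of *PDK4* followed the size of the library closely. All 11 libraries had at least 1000 peaks, and no smaller library listed it. In the 200 set it was listed from 2467 peaks upward, with high fat 200 replicate 3 (6288 peaks) as the only larger library without it. In the 600 set it was listed from 1325 peaks upward, with high fat 600 replicate 3 (1336 peaks) as the only exception. *ACADM* and *PDK4* shared 10 libraries, which is 66.7% of those of *ACADM* and 90.9% of those of *PDK4*. The library with *PDK4* alone was low fat 200 replicate 4. All 5 *CPT2* libraries listed *ACADM*, and 4 of them listed *PDK4*.

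The study's title asks about fat content, and no member passed the test between the fat groups. In the 200 set *ACADM* was listed in 3 high fat and 3 low fat libraries (Fisher's exact test, two-sided, p = 1). *PDK4* was listed in 2 against 4 (exact p = 0.592) and *CPT2* in 3 against 1 (exact p = 0.559). In the 600 set *ACADM* was listed in 4 high fat and 5 low fat libraries and *PDK4* in 2 and 3 (exact p = 1 for each). After Benjamini-Hochberg adjustment over all genes listed in at least 3 libraries, every adjusted p was 1. The members' 0 calls stood against 0 of 6897 genes (0%) in the 200 set and 0 of 3294 genes (0%) in the 600 set. At an unadjusted p under 0.05 the counts were 3 and 0 genes, none of them a member. *CPT1A*, *ACADVL*, *EHHADH*, *HADHA* and *HADHB* were listed in too few libraries to be tested. With 7 libraries against 7 the smallest p is 0.000583, so only near-complete differences shared by many genes could pass. For a gene listed in 4 of the 200 libraries, as *CPT2* was, the smallest Fisher's exact p is 0.0699.

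Libraries of the 200 and 600 sets that matched in title number, fat group and replicate were also joined, assuming that each such pair came from 1 animal. *ACADM* was then listed in 4 high fat and 5 low fat animals (Fisher's exact test, p = 1), *PDK4* in 2 and 4 (exact p = 0.592) and *CPT2* in 3 and 1 (exact p = 0.559). No gene of 7219 passed the adjusted threshold (0%), and 5 had an unadjusted p under 0.05. For the difference of the fat effect between the 600 and the 200 sets, fat groups were permuted over the animals. This exact permutation test gave p = 1 for *ACADM*, *PDK4* and *CPT2*, with 0 of 7598 genes past the adjusted threshold (0%) and 10 under 0.05 unadjusted. The direction of the members was mixed, as it was for all genes. In the 200 set 35.5% of the tested genes were listed in more high fat and 38.4% in more low fat libraries, and in the 600 set 25.7% and 39.6%.

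Between the 200 and 600 sets no member passed the test. *ACADM* was listed in 9 libraries of the 600 set against 6 of the 200 set (Fisher's exact test, p = 0.449, adjusted p = 0.939), *PDK4* in 5 against 6 (exact p = 1) and *CPT2* in 1 against 4 (exact p = 0.326, adjusted p = 0.853). None of the 7598 genes tested passed the threshold (0%), with 393 at an unadjusted p under 0.05. Among regions 42 of 8592 passed (0.489%), and none of them was a region of the 8 genes. With same-numbered pairs as a block 0 regions passed, and with only the libraries of at least 1000 peaks 0 passed. The direction at *ACADM* was an uncommon one: 5.01% of the tested genes were listed in more 600 than 200 libraries, and 86.3% in more 200 libraries. This went with the total yield of 62190 peaks in the 200 set and 22002 in the 600 set. In 6 same-numbered pairs both libraries listed *ACADM*, in 3 pairs (high fat 3, low fat 3 and low fat 4) the 600 library alone did, and in none the 200 library alone. A cut at these counts, set after they were seen, takes in *ACADM* by construction. Of the tested genes 18, or 0.237%, had the 600 library alone in at least 3 pairs and the 200 library alone in none. *PDK4* had both libraries in 5 pairs and the 200 library alone in 1, and *CPT2* had both in 1 and the 200 library alone in 3.

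Where both libraries of a pair listed a gene, the peaks could be set side by side. The *ACADM* peak was wider in the 600 library in 6 of 6 pairs, by 1.21 to 1.98 times, and the *PDK4* peak in 5 of 5 pairs, by 1.11 to 1.83 times. This was the rule for the libraries as a whole: in the same pairs 87.7% to 95.3% of the shared regions were wider in the 600 library, with median ratios of 1.40 to 1.92. In the 600 library the −log10 p was higher in 2 of 6 pairs for *ACADM* (by 0.13 in high fat 7 and 0.54 in low fat 1) and in 0 of 5 for *PDK4*. Over all shared regions of these pairs 1.81% to 15.3% were higher in the 600 library. By rank within the library *ACADM* stood higher in the 600 library in 4 of 6 pairs, most in low fat 1, where it went from 54.4% to 92.8%. In each of these pairs the median rank change over all shared regions, 600 minus 200, was below 0. The rank of *PDK4* was lower in the 600 library in all 5 pairs, by 0.48 to 24.2 percentage points. Over all shared regions of the same pairs the median change, 600 minus 200, was -24.3 to -9.63 points.

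The place of the *ACADM* summit also differed between the sets, a comparison chosen after the values were seen. In the 200 libraries the summit lay 59, 135 and 112 bp beyond the upper end of the gene in high fat replicates 7, 4 and 1, and 61, 103 and 169 bp in low fat replicates 7, 6 and 1. In the 600 libraries it lay 394, 212, 289 and 303 bp beyond that end in high fat replicates 1, 3, 4 and 7, and 324, 241, 186, 305 and 410 bp in low fat replicates 1, 3, 4, 6 and 7. The sets did not overlap, with medians of 107.5 bp (n = 6) and 303 bp (n = 9), while the fat groups overlapped within each set. In all 6 pairs the 600 summit was farther out, by 154 to 349 bp. Among 1116 regions listed in at least 5 libraries of each set, the summits of the sets did not overlap in 109 (9.77%), in either direction. A median shift of at least 195.5 bp, that of *ACADM*, was found in 11.2% of these regions, and among 437 regions with at least 6 pairs all pairs moved the same way in 20.1%. The *ACADM* shift was thus in the upper part of what the regions showed but not rare among them. At *PDK4* the sets overlapped, with summits from 53 bp inside to 202 bp beyond the upper end, and 3 pairs moved outward and 2 inward. Peak widths differed between the sets, and their part in the summit positions was not tested.

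**Figure D3:**
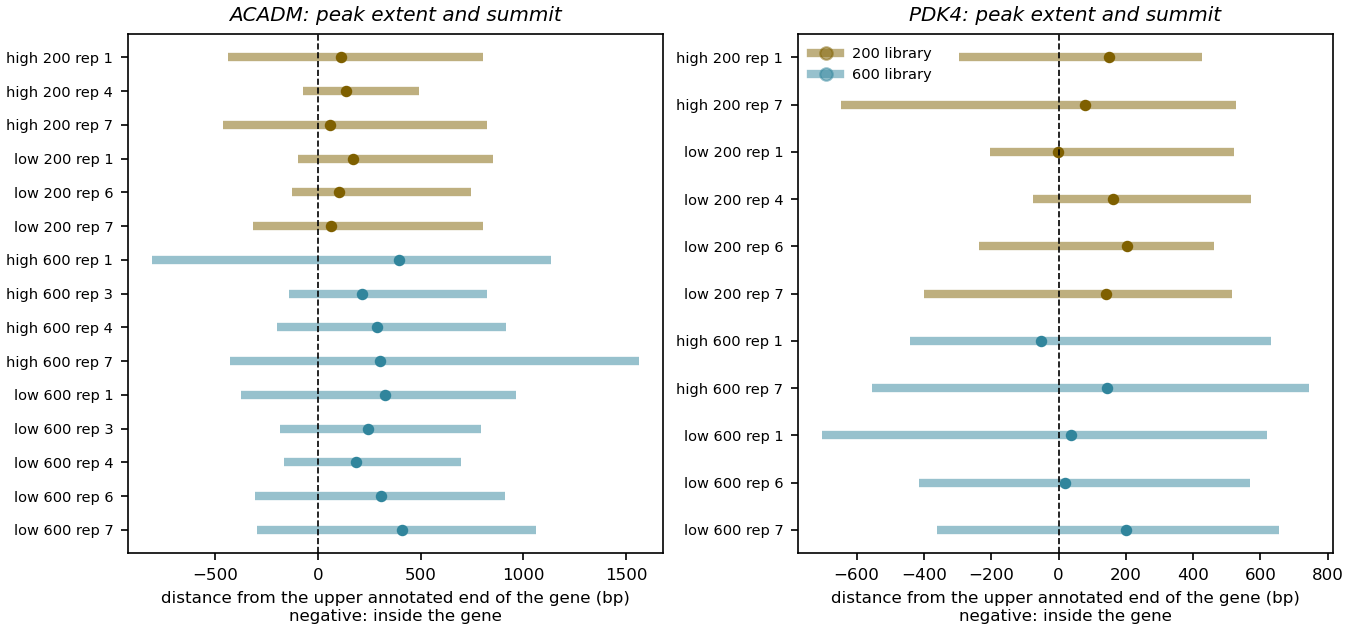
Extent (bar) and summit (dot) of every ACADM peak (left) and PDK4 peak (right), as distance in bp from the upper annotated end of the gene, negative inside the gene; colour gives the number 200 or 600. The ACADM summits lie at 59 to 169 bp in the 200 libraries and at 186 to 410 bp in the 600 libraries, while the PDK4 summits of the sets overlap.

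The genes listed in nearly the same libraries were sought among 5007 protein-coding genes with peaks in at least 5 libraries, by the share of libraries common to both genes among all that list either (Jaccard index over 28 libraries). Nearest to *ACADM* were *MYO6* (14 shared libraries, index 0.933), *PPA2* and *SMARCA5* (14 shared libraries and 0.875 each), against a median of 0.467. For *PDK4*, 88 genes had an index of 1, led in alphabetical order by *AHI1*, *AKR1D1* and *ANKZF1*, against a median of 0.636. These genes were thus listed, like *PDK4*, only in libraries of at least 1000 peaks. For *CPT2*, 5 genes had an index of 1, among them *DMTN*, *MAP6D1* and *NFKBIB*. Such likeness is a description over libraries that share their peak number.

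The wider pathway was read from 69 further genes in 5 lists. For comparison, 61.6% of all protein-coding genes and 68.9% of those with a symbol were listed in at least 1 library, the latter with a median of 2 libraries. In fatty acid uptake, activation and the carnitine shuttle 10 of 14 genes were listed, with a median of 2.5 libraries. The acyl-CoA synthetases *ACSL3* (15 libraries) and *ACSL1* (13) and the carnitine transporter *SLC22A5* (14) led this list. All *ACSL1* peaks lay inside the gene, farther than 1000 bp from its ends, and 13 of the 50 *SLC22A5* peaks lay near an end. Since peaks anywhere in a gene count, longer genes have more room to be listed, and the library numbers were not adjusted for gene length. The fatty acid translocase *CD36*, the carnitine-acylcarnitine carrier *SLC25A20*, *CPT1B* and *CPT1C* were listed in 0 libraries. In mitochondrial beta-oxidation 15 of 16 genes were listed, with a median of 4 libraries. *ETFDH*, which passes electrons from the acyl-CoA dehydrogenases to the respiratory chain, was listed in 20 libraries, more than *ACADM*, followed by *HADH* (11), *ACADSB* (8) and *DECR1* (8). Only *ECI1* had no peak. In peroxisomal oxidation 9 of 11 genes were listed, with a median of 3 libraries. There the thiolase *ACAA1* and the carnitine octanoyltransferase *CROT* were listed in 14 libraries each, *ACOX2* in 9 and *HSD17B4* in 8, while *ABCD2* and *PEX11A* had no peak.

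The ketone body list held 5 enzymes and the monocarboxylate carrier *SLC16A1*, and 5 of its 6 genes were listed, with a median of 5 libraries. *BDH1*, which interconverts acetoacetate and 3-hydroxybutyrate, was listed in 12 libraries, all by peaks farther than 1000 bp from its ends. *OXCT1*, the enzyme of ketone body use that liver is known to lack, was listed in 0. Among the regulators 17 of 22 were listed, with a median of 5.5 libraries. The pyruvate dehydrogenase phosphatase *PDP1* (14 libraries) and the kinase *PDK1* (11) were near *PDK4* in number, with *SIRT1* (11), *NR3C1* (10), *ESRRA* (9), *PPARGC1A* (8), *RXRA* (8) and *PDP2* (8). Like *BDH1*, the genes *NR3C1*, *PPARGC1A* and *PDP2* were listed only by peaks farther than 1000 bp from their ends. *PPARA*, *ACACB*, *FGF21*, *SIRT3* and *PRKAA2* had no listed peak. An unlisted gene may still be open, since a list holds only the sites that passed the peak caller.

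No gene of these lists passed the adjusted threshold in any comparison. Of the 42 tested between the fat groups of the 200 set, 13 were listed in more high fat and 17 in more low fat libraries. Of the 22 tested in the 600 set, 9 and 10 were. Between the sets 40 of 45 tested genes were listed in more 200 libraries and 1 in more 600 libraries, near the 86.3% and 5.01% of all genes. At an unadjusted p under 0.05 stood 2 of the 45 genes, a share near that of all genes (393 of 7598). They were *RXRA*, the partner of PPARα (0 of 14 libraries of the 600 set and 8 of 14 of the 200 set, Fisher's exact p = 0.00193, adjusted p = 0.733) and *MLYCD*, which breaks down malonyl-CoA.

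**Figure D4:**
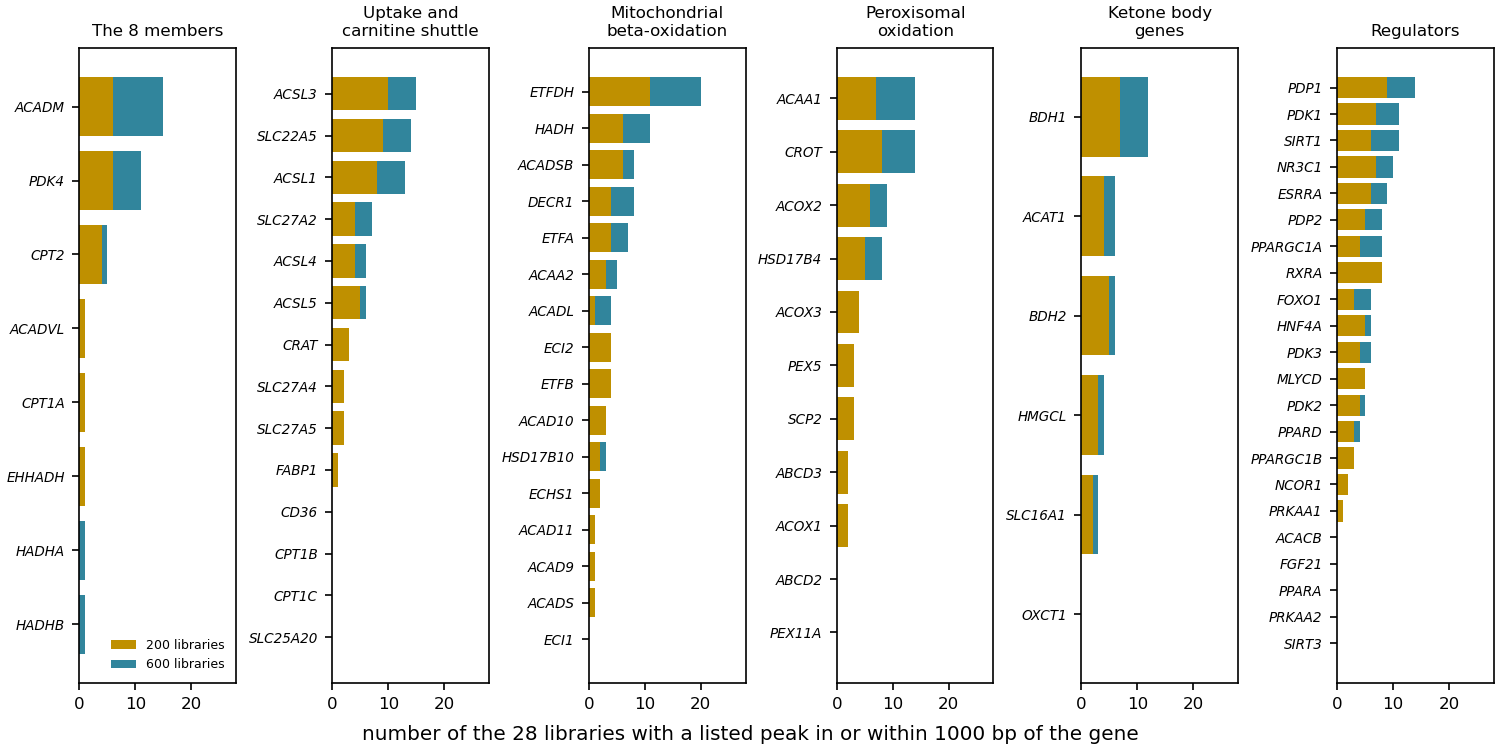
Number of the 28 libraries with a listed peak for the 8 genes (first panel) and for the genes of 5 pathway lists, split into 200 and 600 libraries. ETFDH reaches 20 libraries, and ACADM is the member in which the 600 libraries make up the larger share of many, 9 of 15.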

How the data were processed

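The data were 28 ATAC-seq peak lists of pig liver. Per the submitters' processing notes FastQC, BWA, SAMtools, Picard and Genrich were used with Sscrofa11.1; roles and versions are not given in the sources used here. Per the file headers each peak has a position, score, signal, p-value, summit and library. The deposited p-value column runs from 2.83 to 7880.9 and was read as −log10 p. The deposited signal, the authors' value per peak, starts at 400.006. The deposited score was not used as a measure. The files hold no read counts, so depth is unknown and no interval or detection limit is given. Within a library −log10 p takes 24 to 349 distinct values, a median of 144, so ranks are coarse. Deposited starts were counted from 0, because the score of the peaks below its maximum equals 1000 times the signal over end minus start in 99.99% of them. Coordinates are printed counted from 1.

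Overlapping peaks (at least 1 bp) were merged by chaining into 29392 regions. Genes came from the RefSeq table of Sscrofa11.1, which gives no strand here, so ends are called lower and upper by coordinate. Regions and genes listed in at least 3 libraries were tested on presence with Fisher's exact test, two-sided, with Benjamini-Hochberg adjustment over the whole table at 0.05. The difference of the fat effect used exact permutation. The software was scipy 1.17.1, pandas 2.3.3 and numpy 2.4.6 under Python 3.11.15, with figures by matplotlib 3.10.9, and the tests were first tested on simulated lists. The members, lists and named genes were chosen with earlier results of these data known. Named were all 8 genes, the list genes in 8 or more libraries or in none, and the 3 genes most like each member listed in 5 or more libraries and over 100 kb from it. *MLYCD* was named after its values were seen. Results for 2 genes of the lists are not reported here, and the list counts leave them out. No 2 libraries shared more than 5.88% identical peaks. Promoter sequences and motifs were not analysed here. Alternatives were other windows, peak positions, strength limits, library subsets, overlaps, minima, a replicate block and leaving out each library.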

Additional observations from a re-analysis of the deposited data

Results flagged for a closer look

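High fat 600 replicate 7 listed 5 of the 8 genes (*ACADM*, *PDK4*, *CPT2*, *HADHA* and *HADHB*), while the other 6 libraries of its group listed 0 to 2. With these counts the library passed Dixon's criterion, at a gap over range of 0.6 against a critical value of 0.568. The count of 5 takes *HADHA* and *HADHB* as separate genes, although they share 1 peak. The call rests on that double count. The criterion was not run with the peak counted once, and no conclusion is drawn from the call. This library also listed the most peaks of its group, 6453. In low fat 600 replicate 2, 1.98% of the peaks lay within 1000 bp of a gene end, against 50.35% to 73.19% in the other libraries of the group, and it listed none of the 8 genes among 101 peaks. Of 20 groups examined in this way, chance marks about 1 in 20.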

How the results depend on the processing

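The counts of genes and regions past the threshold in each fat comparison, and in the difference of the fat effect, were 0 under every alternative run. In the 600 set, the libraries of at least 1000 peaks gave a smallest p of 0.1 by Fisher's exact test. That is the lowest so few libraries can give, so the 0 of that alternative was fixed beforehand. Between the sets, 42 regions passed. The count was 0 with the replicate block (exact sign test over same-numbered pairs, smallest p 0.000122, smallest adjusted p 0.131). It was 0 with only libraries of at least 1000 peaks (Fisher's exact test, smallest p 0.0002, smallest adjusted p 0.107) and 7 with the 1000 strongest peaks of those libraries. Both smallest p-values are the lowest that these tests can give, so a count of 0 there does not show that no region differs. Leaving out each library in turn gave 42 to 49, and leaving out both high fat replicate 3 libraries, an alternative chosen after seeing the data, gave 38. For genes between the sets, windows of 2500 and 5000 bp gave 2 and 3 calls against 0. The cause of these moves was not tested. Member p-values were computed with other windows and peak positions, the replicate block, libraries of at least 1000 peaks, and each library left out. They were not computed for the strength limits or changed minima. In none of the settings computed did *ACADM*, *PDK4*, *CPT2* or *ACADVL* reach an unadjusted p of 0.05. For *ACADVL* this was fixed beforehand by its few listings. For *CPT2* it was fixed between 7 high fat and 7 low fat libraries or animals. A gene listed in 4 of them can reach no lower than 0.0699 by Fisher's exact test. The lowest exact values were 0.0978 for *CPT2* between the sets and 0.167 for *PDK4* between the fat groups of the 200 set. With the 1000 strongest peaks *PDK4* was listed in 4 libraries, *CPT2* in 1 and each gene listed in a single library in 0. *CPT1A*, *ACADVL* and *EHHADH* were in 0 above the median strength. *ACADVL* was in 3 and 4 libraries with windows of 2500 and 5000 bp and in 0 with gene ends only.

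Deviations of same-numbered libraries correlated above 0.1 in 3 of 7 high fat and 6 of 7 low fat pairs of a 200 and a 600 library. For high and low fat libraries of the same replicate number this held in 2 of 7 pairs of the 200 set and 6 of 7 of the 600 set. These values do not settle whether same-numbered libraries belong together. The number was not taken as a block in the main tests, and the block was run as an alternative. A library of few peaks cannot show that a gene is closed, and that limits every statement on unlisted genes.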
